A study of Mus musculus with 4 samples.

Results

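The genes described here are 10 imprinted genes, taken by symbol under a rule with no threshold on a measured value: Snrpn, Ndn, Peg3, Plagl1, Impact, Dlk1, H19, Meg3, Cdkn1c and Grb10. Each symbol matched 1 of the 55401 Ensembl identifiers in the deposited count table, and all 10 passed the filter on low counts, among 15131 genes tested. RNA was sequenced from tissue lying beside pancreatic tumours of mice, with 2 libraries from CRFR1-KO animals and 2 from wild-type (WT) animals. The labels name Panc02, a mouse pancreatic ductal adenocarcinoma line, in both groups, so every animal was tumour-bearing and the genotype is the sole labelled difference. The knockout is conditional per the series' design text, the title points to mast cells, and the Cre driver, strain, sex and age are not named in the labels. Nor do the labels say whether a library came from a single animal, so the variation behind each p-value is that among these 4 libraries and may be technical.

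Imprinted genes are transcribed mainly or solely from the copy inherited from a given parent, under the control of methylation marks laid down in the germ line. Many of them act on growth, cell cycle arrest and metabolism, and several are high in the embryo and low in most adult tissues. Snrpn, Ndn, Peg3, Plagl1, Impact and Dlk1 are known as paternally expressed in the mouse, and H19, Meg3 and Cdkn1c as maternally expressed. Grb10 is maternally expressed in most tissues and paternally in neurons. Gene-level counts do not separate the parental alleles, so the values below are total RNA and say nothing of imprinting itself. In whole tissue, fewer cells of a type and less RNA per cell cannot be told apart.

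Total counts lay between 63495457 and 71203640 per library. Exocrine enzymes and factors dominated, with 10 acinar markers holding 34.0% to 36.2% of each library's counts, whereas the 10 imprinted genes together held 0.00535% and 0.0057% in CRFR1-KO and 0.00704% and 0.00631% in WT. Levels are given as CPM, the count divided by the library size after scaling by the trimmed mean of M values. On that scale the 10 imprinted genes summed to 59.95 and 55.3 CPM in CRFR1-KO and 59.6 and 68.7 CPM in WT, so the groups overlapped. The scaled library sizes were 62501291 and 65464931 in CRFR1-KO, 82667347 in WT 1 and 65449330 in WT 2. Raw counts of WT 1 below therefore read high beside those of the other libraries. Crhr1, which encodes CRFR1, had 0 counts in all 4 libraries, so the genotype could not be checked from it. Of 9 mast cell markers, 6 (Cma1, Mcpt4, Tpsb2, Tpsab1, Fcer1a and Ms4a2) were at 0 in every library. The WT 1 library stood apart in its makeup: 12 fibroblast markers summed to 182 and 206 CPM in CRFR1-KO, against 537 CPM in WT 1 and 258 CPM in WT 2, and 17 islet markers summed to 249.7 and 310.2 CPM in CRFR1-KO, against 44.3 CPM in WT 1 and 286 CPM in WT 2.

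Imprint control regions are bound by zinc finger proteins such as ZFP57, which recognises the hexamer TGCCGC when its CpG is methylated. The promoter windows of the 10 genes were searched for this hexamer on both strands (TGCCGC or GCGGCA) in RefSeq windows that run from 250 bases before to 50 after an annotated start on GRCm38.p6. These windows were set by annotated starts and were not matched to imprint control regions. For 7 of the 10 genes 12 windows were at hand, and H19, Cdkn1c and Impact had none that was used here. The hexamer was found in 4 of the 12 windows, with 1 match in each, against 11.6% of 32817 windows of all genes, in which it is a description and not a site of binding. These 4 windows are shown because they carry the match, written in capitals, and because the first of them is the annotated start of both Snrpn and Snurf, whose gene models share reads below. Grb10 (chr11:12037371-12037670, minus strand) is the richest in CpG, and Plagl1 (chr10:13090582-13090881, plus strand), Meg3 (chr12:109540746-109541045, plus strand) and Snrpn with Snurf (chr7:60005150-60005449, minus strand) follow.
Snrpn and Snurf: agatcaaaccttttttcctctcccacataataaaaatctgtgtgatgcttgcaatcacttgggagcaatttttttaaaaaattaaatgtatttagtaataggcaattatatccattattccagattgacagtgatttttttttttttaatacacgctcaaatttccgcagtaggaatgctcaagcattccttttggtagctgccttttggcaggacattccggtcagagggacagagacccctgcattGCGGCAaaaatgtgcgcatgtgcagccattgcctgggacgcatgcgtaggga
Plagl1: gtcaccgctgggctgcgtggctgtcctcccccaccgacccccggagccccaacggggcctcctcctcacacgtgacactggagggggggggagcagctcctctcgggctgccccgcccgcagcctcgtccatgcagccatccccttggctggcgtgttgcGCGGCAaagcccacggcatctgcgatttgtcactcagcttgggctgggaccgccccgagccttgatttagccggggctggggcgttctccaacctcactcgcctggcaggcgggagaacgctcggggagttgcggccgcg
Grb10: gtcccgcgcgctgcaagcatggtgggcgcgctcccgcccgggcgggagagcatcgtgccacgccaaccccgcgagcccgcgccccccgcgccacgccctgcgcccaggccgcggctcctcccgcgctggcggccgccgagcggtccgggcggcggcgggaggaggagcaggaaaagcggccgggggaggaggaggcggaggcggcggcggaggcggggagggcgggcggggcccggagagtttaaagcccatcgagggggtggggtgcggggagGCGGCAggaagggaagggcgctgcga
Meg3: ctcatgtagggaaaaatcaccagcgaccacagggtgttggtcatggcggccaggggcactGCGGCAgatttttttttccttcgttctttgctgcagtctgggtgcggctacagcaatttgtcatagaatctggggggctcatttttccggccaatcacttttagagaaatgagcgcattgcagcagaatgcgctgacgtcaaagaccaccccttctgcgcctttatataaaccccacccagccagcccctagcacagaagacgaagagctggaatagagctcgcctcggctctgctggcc

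CpG content set the 12 windows widely apart. The Grb10 window shown above held 45 CpG dinucleotides and the Plagl1 window 26, against a median of 7 over the windows of all genes. The Meg3 and Peg3 windows held 13 each, and a second Meg3 window held 1. Of the 4 windows listed for Snrpn, the one shared with Snurf held 7, and the others held 2, 3 and 4. A ratio of observed to expected CpG of at least 0.6 was reached by 4 of the 12 windows, against 35.8% of all windows.

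**Figure D1:**
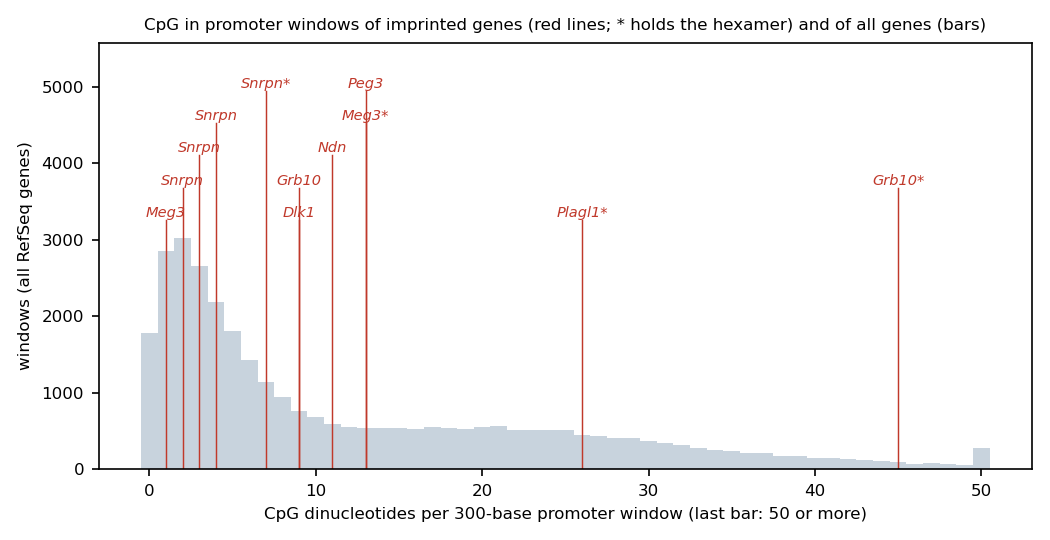
Number of CpG dinucleotides per 300-base promoter window. Bars count the windows of all RefSeq genes, and red lines mark the 12 windows of 7 imprinted genes, with an asterisk on the 4 that hold the hexamer. The Grb10 window with 45 and the Plagl1 window with 26 lie far right of the median of 7.

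Per kilobase of exon, Snrpn, encoding the SmN protein of the spliceosome, was the most abundant of the 10 genes, at 3.7 ± 1.09 CPM per kb (SD over the 4 libraries, exon length from GENCODE M21). Grb10 followed at 2.09 ± 0.363 CPM per kb, Plagl1 at 1.48 ± 0.387, Cdkn1c at 1.145 ± 0.426, Peg3 at 0.814 ± 0.185 and Impact at 0.559 ± 0.224 CPM per kb. Ndn at 0.256 ± 0.0961, Meg3 at 0.249 ± 0.033, H19 at 0.116 ± 0.106 and Dlk1 at 0.0854 ± 0.0865 CPM per kb closed the order. Only the step from Snrpn to Grb10 separated all libraries of one gene from all of the next, and the ranges of every other pair of neighbours in the order overlapped. Compared within each library, Grb10 was above Plagl1, Peg3 above Impact and Impact above Ndn in 4 of 4. Plagl1 was above Cdkn1c, Cdkn1c above Peg3 and Meg3 above H19 in 3 of 4. Ndn and Meg3 were each above the other in 2 of 4 libraries, and so were H19 and Dlk1. The exon length of 18089 bases for Meg3 is a union over many isoforms, which lowers its value per kb.

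Between the genotypes, 0 of the 10 genes passed the edgeR quasi-likelihood test after Benjamini-Hochberg adjustment over all tested genes (smallest adjusted p = 0.795, for Snrpn), where 0.0264% of all tested genes passed (0.0132% higher and 0.0132% lower). By DESeq2 0 of the 10 passed, where 0.377% of all did, and by limma-voom 0 of the 10, where 0 of 15131 did. At an unadjusted edgeR p under 0.05 there were 2 of the 10, Snrpn on the higher side and Grb10 on the lower, against 4.86% of all tested genes (1.71% higher and 3.15% lower). Both CRFR1-KO libraries lay on the same side of both WT libraries for 3 genes, Snrpn (above), Meg3 and Grb10 (below), against 33.5% of all tested genes, so the share among the 10 was near the background. Of the 10 log2 fold changes (CRFR1-KO over WT) 8 were below 0, against 50.8% of all tested genes, with a median of -0.26 beside -0.01 over all tested genes. Among the 6 paternally expressed genes 2 values were above 0 and 4 below (median -0.13), and among the 4 maternally expressed genes 0 were above and 4 below (median -0.47). With 2 libraries against 2, an exact permutation test of a single gene cannot reach the threshold, so none was used. Without WT 1, 0 of the 10 passed where 0.253% of all tested genes did, and without WT 2, 0 of the 10 where 0.43% did.

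**Figure D2:**
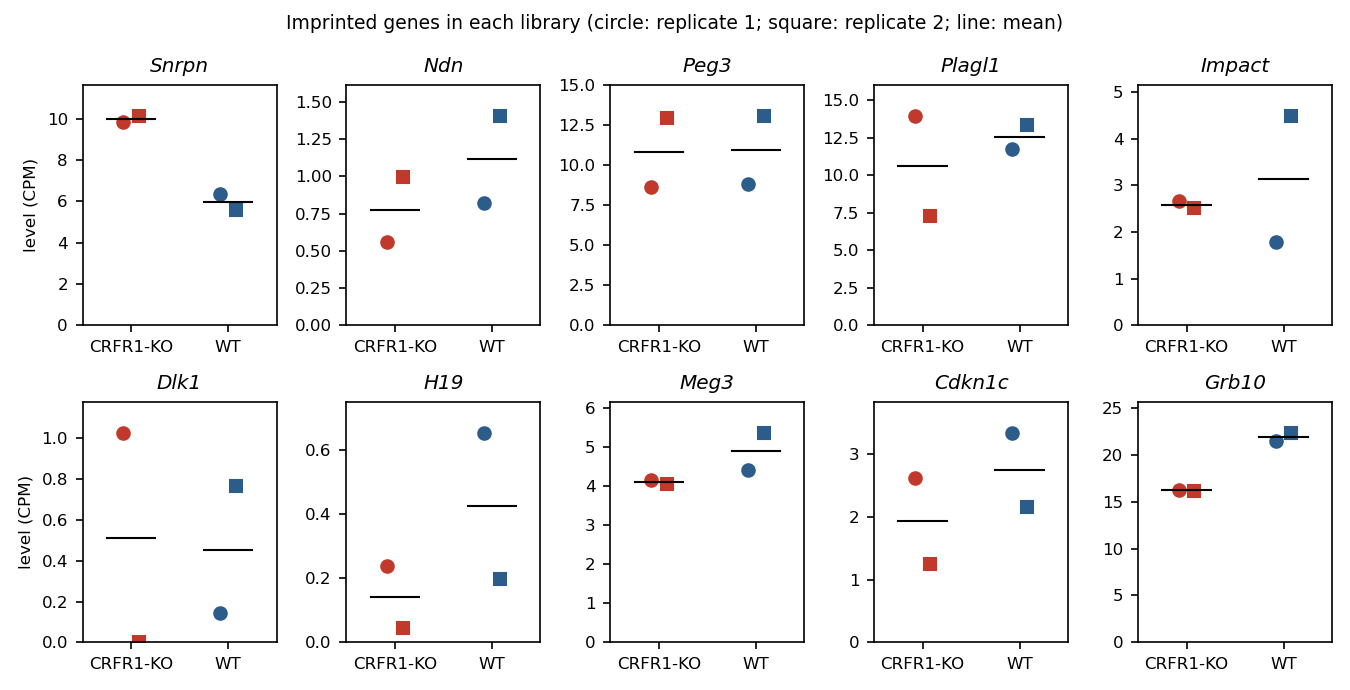
Level of each of the 10 imprinted genes in CPM, with CRFR1-KO libraries on the left (red) and WT libraries on the right (blue) of each panel, circles for replicate 1, squares for replicate 2 and a line at the mean. Snrpn stands at 9.86 and 10.1 CPM in CRFR1-KO against 6.35 and 5.59 CPM in WT, and in 7 of the 10 panels the groups overlap.

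Snrpn (ENSMUSG00000102252; chromosome 7, 59982495 to 60140219, minus strand, GRCm38 in GENCODE M21) had 616 and 664 counts in CRFR1-KO and 525 and 366 counts in WT. That is 9.86 and 10.1 CPM (SD 0.203) in CRFR1-KO and 6.35 and 5.59 CPM (SD 0.536) in WT. Both CRFR1-KO libraries were above both WT libraries. The log2 fold change was 0.74 (SE 0.18, 95% interval 0.32 to 1.16, edgeR unadjusted p = 0.00414, adjusted p = 0.795), so the gene did not pass. Leaving out a library in turn gave values between 0.66 and 0.84, and on library totals without scaling the edgeR unadjusted p was 0.0705.

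Snrpn is transcribed together with Snurf, a short upstream reading frame on the same RNA, and the table splits the locus over several gene models. A single model carried the symbol Snrpn, and it shares exon bases with Snurf (ENSMUSG00000102627), which had 1 and 0 counts in CRFR1-KO and 0 and 1 in WT, and with Gm38393 (ENSMUSG00000000948), which had 23 and 16 counts in CRFR1-KO and 38 and 15 in WT. Summed over these 3 models, the locus had 640 and 680 counts in CRFR1-KO and 563 and 382 counts in WT, of which Snrpn itself made up 93.3% to 97.6%. The log2 fold change of this sum was 0.70 (SE 0.18, edgeR adjusted p = 0.801). Shared exon bases link the locus on to Snhg14, the long noncoding RNA that hosts the snoRNAs of the domain and, in neurons, runs antisense to Ube3a. Summed over all 8 models linked in this way, the counts were 773 and 813 in CRFR1-KO and 787 and 555 in WT, with a log2 fold change of 0.46 (SE 0.17, edgeR adjusted p = 1). The size of the difference in Snrpn thus depended on whether Snhg14 was counted with it.

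The neighbours of Snrpn on chromosome 7 had log2 fold changes on both sides of 0. Snhg14 stood at 2.07 ± 0.0789 CPM in CRFR1-KO and 2.68 ± 0.0469 CPM in WT (SD, 2 libraries a genotype), a log2 fold change of -0.37 (SE 0.27), with both CRFR1-KO libraries below both WT libraries. Ndn, encoding necdin, a MAGE family protein known to restrain cell growth in neurons, had 35 and 65 counts in CRFR1-KO and 68 and 92 in WT. Its level was 0.776 ± 0.306 CPM in CRFR1-KO and 1.11 ± 0.412 CPM in WT, with overlapping groups (log2 fold change -0.52, 95% interval -1.75 to 0.72), and without a library in turn the value ran from -0.98 (without CRFR1-KO 2) to -0.0781 (without WT 2). Mkrn3, a ring finger gene of the same domain, had 25 and 18 counts in CRFR1-KO and 18 and 3 in WT (log2 fold change 1.33, SE 1.05), and Magel2, a relative of Ndn, had 0 counts in all 4 libraries. The ubiquitin ligase gene Ube3a had 900 and 1002 counts in CRFR1-KO and 1358 and 839 in WT, a log2 difference of 0.02 with a 95% interval of -0.41 to 0.46. The phospholipid flippase gene Atp10a had 13 and 32 counts in CRFR1-KO and 96 and 45 in WT (log2 fold change -1.40, SE 0.67). None of these domain genes passed the edgeR adjustment.

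Snrpn belongs to the Sm proteins that form the core of spliceosomal particles, and SmN can stand in for the product of Snrpb. Snrpb itself had 557 and 582 counts in CRFR1-KO and 696 and 664 in WT. In CPM its groups overlapped, at 8.91 and 8.89 in CRFR1-KO and 8.42 and 10.1 in WT (log2 fold change -0.06, SE 0.18). Of the 7 other Sm genes listed, all were tested, 1 log2 fold change was above 0 and 6 below, none of them passed the edgeR adjustment or had an unadjusted p under 0.05 (0 of 7), and the median was -0.10. Snrpe, the one with the smallest p, had 39 and 42 counts in CRFR1-KO and 74 and 99 in WT (log2 fold change -0.92, SE 0.49), Snrpd1 had 82 and 21 in CRFR1-KO and 138 and 82 in WT, and Snrpf had 97 and 82 in CRFR1-KO and 143 and 128 in WT.

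Grb10 (ENSMUSG00000020176; chromosome 11, 11930508 to 12038683, minus strand) encodes an adaptor that binds the insulin and IGF1 receptors and dampens their signalling. It had 1015 and 1058 counts in CRFR1-KO and 1775 and 1459 in WT, or 16.2 ± 0.0554 CPM in CRFR1-KO and 21.9 ± 0.58 CPM in WT (SD, n = 2 libraries each). Both CRFR1-KO libraries were below both WT libraries. The log2 fold change was -0.43 (SE 0.16, 95% interval -0.80 to -0.07, edgeR unadjusted p = 0.0269, adjusted p = 0.987), so the gene did not pass. Values without each library in turn lay between -0.46 and -0.40. The edgeR unadjusted p was above 0.05 without CRFR1-KO 1 (0.142), CRFR1-KO 2 (0.153) or WT 2 (0.0506).

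Grb10's neighbours on chromosome 11 lay the other way. Cobl, an actin nucleator gene next to Grb10, had 476 and 336 counts in CRFR1-KO and 202 and 169 in WT (edgeR log2 fold change 1.34 with SE 0.26 and adjusted p = 0.566), and DESeq2 called it higher (adjusted p = 0.0275), where 0.377% of all tested genes were called in either direction. Ddc, encoding the decarboxylase that makes dopamine and serotonin, had 292 and 374 counts in CRFR1-KO and 322 and 274 in WT (log2 fold change 0.36, SE 0.22). Of the 11 tested genes of the insulin and IGF receptor list, 2 values were above 0 and 9 below with a median of -0.19, and the edgeR adjustment left 0 of them (likewise 0 at an unadjusted p under 0.05). Insr, the insulin receptor gene that Grb10 acts on, stood at 21.7 ± 2.04 CPM in CRFR1-KO and 20.8 ± 0.636 CPM in WT. The receptor substrate gene Irs1 had 156 and 169 counts in CRFR1-KO and 74 and 130 in WT (log2 fold change 0.82, SE 0.42). Grb14 and Grb7, which encode adaptors of the same family as Grb10, had 19 and 8 counts and 373 and 318 counts in CRFR1-KO, against 53 and 19 counts and 653 and 356 counts in WT. In CPM the groups of both genes overlapped. Grb14 was at 0.304 and 0.122 CPM in CRFR1-KO and 0.641 and 0.290 CPM in WT. Grb7 was at 5.97 and 4.86 CPM in CRFR1-KO and 7.90 and 5.44 CPM in WT.

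Cdkn1c and Plagl1 encode inhibitors of proliferation. Cdkn1c (ENSMUSG00000037664; chromosome 7, 143458339 to 143461050, minus strand) encodes the cyclin-dependent kinase inhibitor p57 and had 163 and 82 counts in CRFR1-KO and 275 and 141 in WT. Its level was 1.93 ± 0.958 CPM in CRFR1-KO and 2.74 ± 0.829 CPM in WT, and the groups overlapped (log2 fold change -0.51, 95% interval -1.51 to 0.49). Without a library in turn the value ran from -1.13 (without CRFR1-KO 1) to -0.0632 (without CRFR1-KO 2). The antisense model Gm44732 at Cdkn1c and the opposite-strand Gm32061 at Ndn had 0 counts in all 4 libraries. Plagl1 (ENSMUSG00000019817; chromosome 10, 13060504 to 13131694, plus strand), a zinc finger transcription factor that arrests the cell cycle, had 873 and 476 counts in CRFR1-KO and 973 and 874 in WT. It stood at 13.97 and 7.27 CPM in CRFR1-KO, against 11.8 and 13.4 CPM in WT, so the knockout libraries lay on both sides of the WT pair (log2 fold change -0.24, 95% interval -0.94 to 0.46).

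Around Cdkn1c, 8 of 10 listed neighbours were tested, with 3 log2 fold changes above 0 and 5 below, 0 past the edgeR adjustment (0 at an unadjusted p under 0.05) and a median of -0.20. Kcnq1ot1, the paternally expressed noncoding RNA that silences Cdkn1c in cis, had 125 and 96 counts in CRFR1-KO and 125 and 154 in WT. The potassium channel gene Kcnq1 had 1278 and 1328 counts in CRFR1-KO and 2115 and 1605 in WT (log2 fold change -0.30, SE 0.16). Cd81, a tetraspanin gene, and Nap1l4, a histone chaperone gene, had log2 fold changes of -0.29 (SE 0.18) and -0.25 (SE 0.16). In the list of CDK inhibitors and cyclins, 3 of 11 values were above 0 and 8 below, and 0 passed the edgeR adjustment. In each direction 1 had an unadjusted edgeR p under 0.05, against 1.71% higher and 3.15% lower of all tested genes. Cdkn1a, encoding the inhibitor p21, had 74 and 223 counts in CRFR1-KO and 595 and 977 in WT (edgeR log2 fold change -2.26 with SE 0.53 and adjusted p = 0.718), and DESeq2 called it lower (adjusted p = 0.00319), where 0.377% of all tested genes were called in either direction. The value was -3.21 without CRFR1-KO 2 and -1.64 without WT 2. The cyclin gene Ccnd3 had 1019 and 1047 counts in CRFR1-KO and 1103 and 704 in WT (log2 fold change 0.42, SE 0.18), and Ccnd1 had 351 and 498 in CRFR1-KO and 757 and 576 in WT.

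Peg3 and Impact, both paternally expressed, showed no separation of the groups. Peg3 (ENSMUSG00000002265; chromosome 7, 6703892 to 6730431, minus strand) encodes a zinc finger transcription factor and had 539 and 845 counts in CRFR1-KO and 729 and 854 in WT. In CPM this was 8.62 and 12.9 in CRFR1-KO and 8.82 and 13.0 in WT, so each genotype had a low and a high library (log2 fold change -0.02, 95% interval -0.65 to 0.61). Its neighbour Zim1, another zinc finger gene, had 51 and 20 counts in CRFR1-KO and 64 and 97 in WT (log2 fold change -1.005, SE 0.64), Usp29 had at most 8 counts in any library, and Zfp264 and Zim3 were at 0 in all 4. Impact (ENSMUSG00000024423; chromosome 18, 12955852 to 12992950, plus strand) encodes an inhibitor of the amino acid sensing kinase GCN2 and had 167 and 164 counts in CRFR1-KO and 148 and 294 in WT. The 2 CRFR1-KO libraries, at 2.67 and 2.51 CPM, lay between WT 1 at 1.79 and WT 2 at 4.49 CPM (log2 fold change -0.27, 95% interval -1.29 to 0.74).

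In the GCN2 pathway, 5 of 8 tested genes had values above 0 and 3 below, with a median of 0.04 and 0 past the edgeR adjustment (1 lower at an unadjusted p under 0.05, against 3.15% of all tested genes). Eif2ak4, which encodes GCN2, had 549 and 428 counts in CRFR1-KO and 494 and 584 in WT. Trib3, a target of the downstream factor ATF4, had 44 and 61 counts in CRFR1-KO and 117 and 169 in WT (log2 fold change -1.28, SE 0.44). Chac1, another ATF4 target, had 271 and 936 counts in CRFR1-KO and 840 and 1355 in WT, and Eif2s1, encoding the subunit that GCN2 phosphorylates, had 473 and 624 in CRFR1-KO and 828 and 703 in WT.

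**Figure D3:**
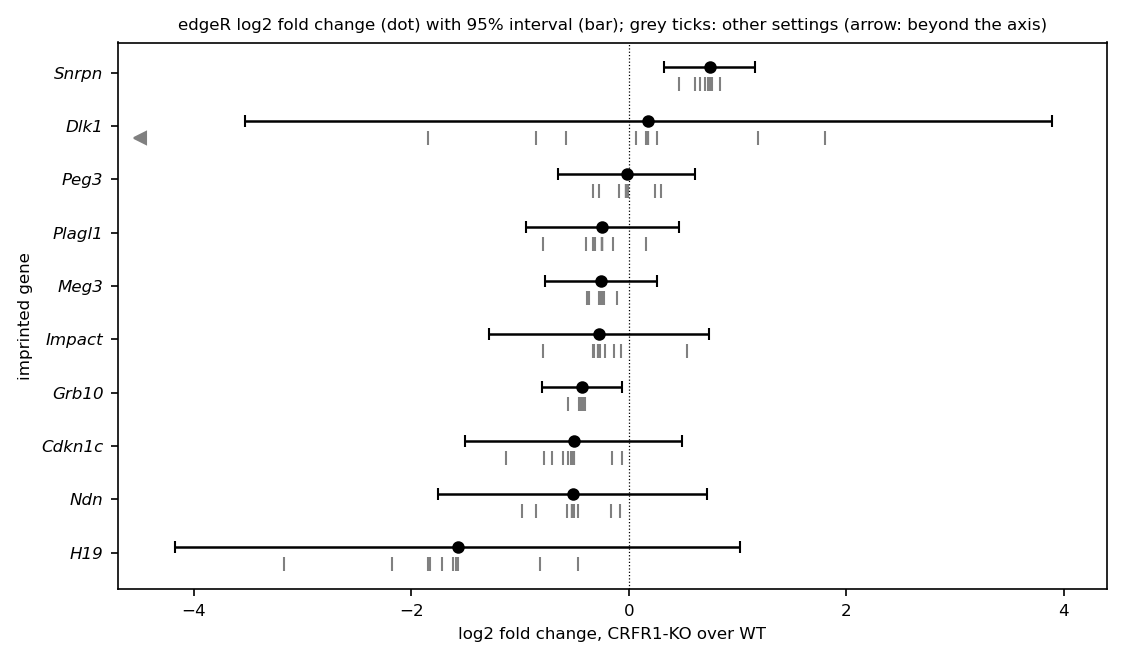
Log2 fold change of each imprinted gene, CRFR1-KO over WT, from edgeR (dot) with its 95% interval (bar), and the values under the other settings (grey ticks, with an arrow for a value beyond the axis). The intervals of Snrpn (0.32 to 1.16) and Grb10 (-0.80 to -0.07) leave out 0 before adjustment, and those of the other 8 genes contain it.

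H19 and Meg3 are long noncoding RNAs. H19 (ENSMUSG00000000031; chromosome 7, 142575529 to 142578143, minus strand), abundant in the fetus and repressed after birth in most tissues, had 15 and 3 counts in CRFR1-KO and 54 and 13 in WT. These were 0.24 and 0.0458 CPM in CRFR1-KO and 0.653 and 0.199 CPM in WT, and the groups overlapped (log2 fold change -1.57, 95% interval -4.17 to 1.03). Values without each library in turn lay between -3.17 and -0.47. Igf2, the growth factor gene reciprocally imprinted with H19, had 0 and 8 counts in CRFR1-KO and 0 and 1 in WT and was not tested, whereas Igf2r, encoding the receptor that clears IGF2, stood at 15.5 ± 0.929 CPM in CRFR1-KO and 14.8 ± 0.912 CPM in WT (log2 fold change 0.06, SE 0.16, and -0.068 on library totals). An exon of H19 encodes the microRNA miR-675, whose own row held 0 and 0 counts in CRFR1-KO and 2 and 0 in WT, and poly(A)-selected libraries do not measure the mature form. Its mature RefSeq sequences are shown with the seed (bases 2 to 8) in capitals. Both lie inside the 84-base model that the row counts (142577064 to 142577147), and a count there need not fall on either. The 3p arm lies at chr7:142577078-142577099 and the 5p arm at chr7:142577112-142577133, on the minus strand of GRCm38.p6, and their seeds differ.
mmu-miR-675-5p: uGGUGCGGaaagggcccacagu
mmu-miR-675-3p: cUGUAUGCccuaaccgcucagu

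Meg3 (ENSMUSG00000021268; chromosome 12, 109541001 to 109571726, plus strand), a maternally expressed noncoding RNA known as a growth suppressor, had 260 and 265 counts in CRFR1-KO and 366 and 351 in WT. Its level was 4.1 ± 0.0792 CPM in CRFR1-KO and 4.9 ± 0.662 CPM in WT, with both CRFR1-KO libraries below both WT libraries. The log2 fold change was -0.25 (SE 0.22, 95% interval -0.77 to 0.26), so the difference was close to its error. Rian, the noncoding RNA downstream of Meg3 on the same strand, had 296 and 203 counts in CRFR1-KO and 401 and 314 in WT (log2 fold change -0.30, SE 0.26). The short models Mir770, Mir1906-1 and Gm27300, which share exon bases with Meg3, had at most 1 count in any library.

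Dlk1 (ENSMUSG00000040856; chromosome 12, 109452823 to 109463336, plus strand) encodes a transmembrane protein with EGF-like repeats, related to Notch ligands and known from preadipocytes and islet cells. It had 64 and 0 counts in CRFR1-KO and 12 and 50 in WT, and thus varied more between libraries of a genotype than between genotypes. In CPM it stood at 1.02 in CRFR1-KO 1, 0 in CRFR1-KO 2, 0.145 in WT 1 and 0.764 in WT 2 (log2 fold change 0.18, 95% interval -3.54 to 3.89). A count of 0 in CRFR1-KO 2 allows up to 0.0458 CPM at a floor of 3 counts per library. That floor holds only if a count stands for a single read, which is not settled. With it, and with the WT mean of 0.455 CPM taken as exact, that library was at least 9.92-fold lower than the mean. This bound rests on WT 2, and against WT 1 alone it is at least 3.17-fold. CRFR1-KO 1, in contrast, was above both WT libraries. Islet markers did not follow Dlk1 in CRFR1-KO 2, where they summed to 310.2 CPM, against 249.7 CPM in CRFR1-KO 1, 44.3 CPM in WT 1 and 286 CPM in WT 2. Of the 3 tested neighbours in this domain (Rian, Mirg and Begain) all had log2 fold changes below 0, with 0 past the edgeR adjustment and 0 at an unadjusted p under 0.05. Mirg had 0 and 17 counts in CRFR1-KO and 7 and 26 in WT, and Begain 0 and 8 in CRFR1-KO and 16 and 12 in WT.

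Genes of the Notch pathway, which Dlk1 is known to modulate, were listed as ligands, receptors and effectors together. Of 11 tested, 1 value was above 0 (the ligand gene Jag2, at 0.35) and 10 were below, against 50.8% below 0 among all tested genes, with a median of -0.40. In edgeR 0 of them passed the adjustment, with 2 lower at an unadjusted p under 0.05, against 3.15% of all tested genes. Notch2 stood at 3.04 ± 0.221 CPM in CRFR1-KO and 4.88 ± 0.00923 CPM in WT (log2 fold change -0.68, SE 0.22). Rbpj, encoding the DNA-binding partner of activated Notch, had 376 and 533 counts in CRFR1-KO and 972 and 591 in WT (log2 fold change -0.55, SE 0.23), and the receptor gene Notch1 had 740 and 686 in CRFR1-KO and 964 and 1166 in WT. In CPM the Notch1 groups overlapped, at 11.8 and 10.5 in CRFR1-KO and 11.7 and 17.8 in WT.

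**Figure D4:**
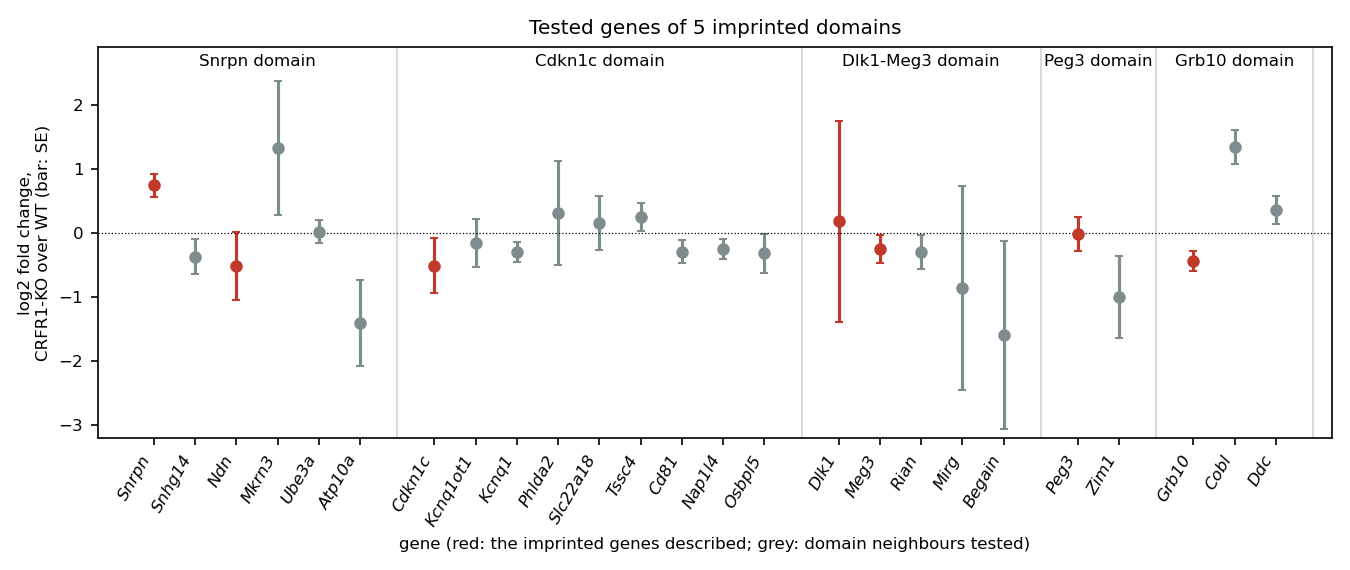
Log2 fold change, CRFR1-KO over WT, with its SE, of the tested genes in 5 imprinted domains, with the genes described here in red and their neighbours in grey. Within the Snrpn domain Snrpn lies at 0.74 and Snhg14 at -0.37, and next to Grb10 at -0.43 lies Cobl at 1.34.

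Beyond the 10 genes, 54 of 55 other genes listed as imprinted were in the table (Hymai was not matched), 5 had 0 counts in every library and 35 were tested. Of these, 15 had log2 fold changes above 0 and 20 below, with a median of -0.15 beside -0.01 over all tested genes, and 0 passed the edgeR adjustment in either direction. At an unadjusted edgeR p under 0.05 there were 2 higher and 2 lower, against 1.71% higher and 3.15% lower of all tested genes. Groups did not overlap for 16 of the 35, against 33.5% of all tested genes. Mest, encoding a hydrolase-fold protein, had 154 and 107 counts in CRFR1-KO, against 914 in WT 1 and 155 in WT 2. Its log2 fold change of -1.72 (SE 0.64) became -0.21 without WT 1, and without WT 2 edgeR called it lower (-2.43, adjusted p = 0.0118). Trappc9, a trafficking complex gene, stood at 14.9 ± 0.599 CPM in CRFR1-KO and 24.9 ± 8.98 CPM in WT (log2 fold change -0.74, SE 0.26), and Rasgrf1, an exchange factor gene for Ras, at 1.75 ± 1.07 CPM in CRFR1-KO and 0.599 ± 0.385 CPM in WT (log2 fold change 1.56, SE 0.65). Rasgrf1 was at 0.74 without CRFR1-KO 1 and 2.42 without WT 2, and Trappc9 at -0.31 without WT 2.

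Genes listed for imprint maintenance, among which the Dnmt3 and Tet genes of DNA methylation were also counted, were measurable for the most part. Zfp57 was near the floor, with 5 and 0 counts in CRFR1-KO and 14 and 8 in WT, and was not tested, whereas Zfp445, a second zinc finger gene with the same role, stood at 20.3 ± 1.89 CPM in CRFR1-KO and 19.5 ± 0.442 CPM in WT. Of 12 tested genes of this list, 5 had values above 0 and 7 below, with a median of -0.16 and 0 past the edgeR adjustment (0 at an unadjusted p under 0.05). Setdb1, a histone H3 lysine methyltransferase recruited to imprinted regions, had 716 and 836 counts in CRFR1-KO and 842 and 566 in WT (log2 fold change 0.36, SE 0.18). The DNA methyltransferase gene Dnmt3a had 436 and 422 counts in CRFR1-KO and 643 and 556 in WT (log2 fold change -0.28, SE 0.18), and Trim28, the corepressor that ZFP57 recruits, had 1647 and 1378 in CRFR1-KO and 1789 and 1206 in WT.

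Cell type markers differed between libraries, and most of the imprinted genes described here did not peak where the fibroblast markers did. H19 and Cdkn1c, and Mest from the longer imprinted list, were highest in WT 1. There all 12 fibroblast markers together were also highest (182 and 206 CPM in CRFR1-KO, 537 and 258 CPM in WT). The 7 duct markers peaked in WT 1 as well (169 and 159 CPM in CRFR1-KO, 273 and 189 CPM in WT). So did the macrophage markers and, narrowly, the adipocyte markers (10.4 CPM, against 10.2 CPM in CRFR1-KO 2). Meg3, Peg3, Grb10, Impact and Ndn were highest in WT 2, Dlk1 and Plagl1 in CRFR1-KO 1, and Snrpn in CRFR1-KO 2. H19 and Cdkn1c were higher in CRFR1-KO 1 (0.24 and 2.61 CPM), which had the lowest fibroblast sum, than in WT 2 (0.199 and 2.15 CPM). Of the 12 fibroblast markers 11 had log2 fold changes below 0 (median -0.95), and none was at 0 in every library. The 8 macrophage markers summed to 45.5 and 72.3 CPM in CRFR1-KO and 125 and 93.0 CPM in WT, and the 8 endothelial markers to 50.5 and 59.7 CPM in CRFR1-KO and 53.0 and 44.7 CPM in WT. Impact, in contrast, was lowest in WT 1. The part of these markers in the values of the imprinted genes was not tested.

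**Figure D5:**
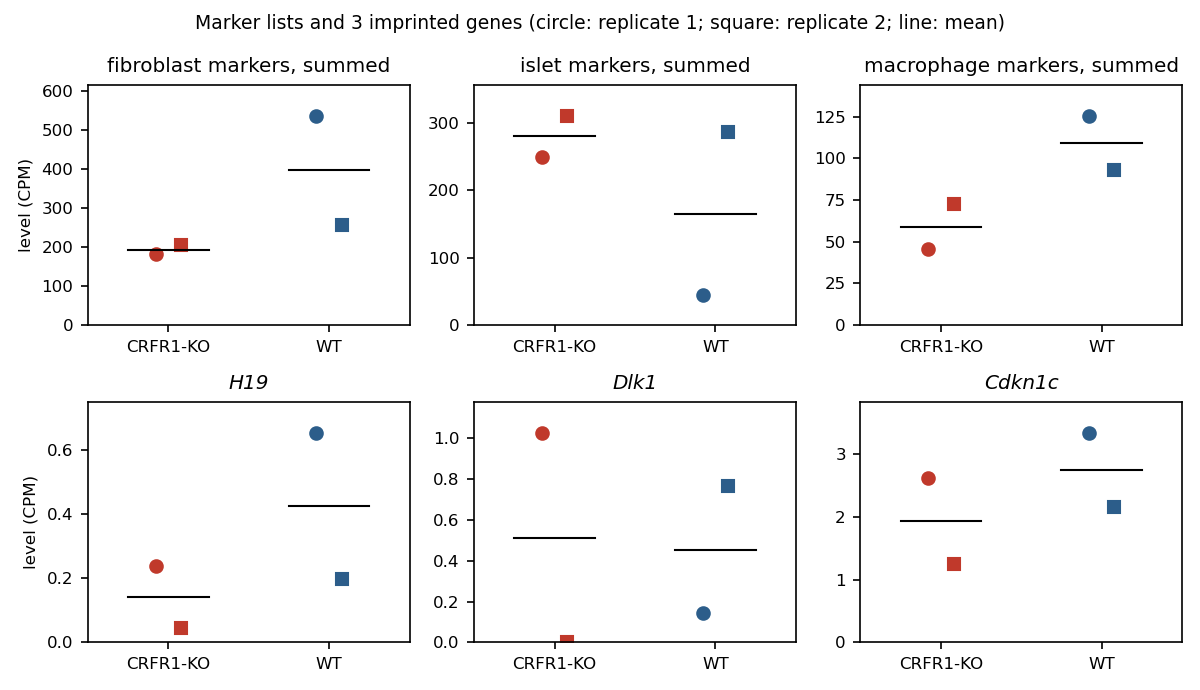
Summed level of the fibroblast, islet and macrophage markers (top) and level of H19, Dlk1 and Cdkn1c (bottom) in CPM, with CRFR1-KO libraries on the left (red) and WT libraries on the right (blue), circles for replicate 1, squares for replicate 2 and a line at the mean. WT 1 has the highest fibroblast sum (537 CPM) and the highest H19 (0.653 CPM) and Cdkn1c (3.33 CPM), and the lowest islet sum (44.3 CPM).

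Among the genes of the 10 with a mean of at least 1 CPM, Cdkn1c and Impact had the widest range of log2 levels, and their profiles were set against 5745 named genes with a mean of at least 5 CPM, by the root mean square distance between log2(CPM + 0.5) values centred over the 4 libraries. Cdkn1c was closest to Itih5 (0.0892), which encodes a hyaluronan-binding chain, Pde2a (0.139), a cyclic nucleotide phosphodiesterase gene, and Acvr1b (0.161), an activin receptor gene. Impact was closest to Nudt4 (0.0337), the mitochondrial ribosomal RNA mt-Rnr2 (0.044) and the transferrin receptor gene Tfrc (0.045). With 4 libraries such likeness is a description of these samples.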

How the data were processed

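Poly(A)-selected RNA was read from dUTP-marked libraries, per the labels' protocols. Values in the deposited file are raw counts, 1 whole number for each Ensembl gene in each of 4 libraries. The submitters' processing notes name FastQC, DESeq2 and edgeR. The aligner, counting program, strand setting and genome build were not given in the sources used here. Genes with 4 or 8 counts outnumbered those just beside these values. In CRFR1-KO 1, 912 genes had 4 counts, against 356 with 3 and 216 with 5. What a deposited count stands for in reads is thus not settled. Floors cover counting error only. Intervals come from the F statistic and also take in the variation among the 4 libraries, which may be technical. Models on the opposite strand overlap Cdkn1c and Ndn, and without a stated strand setting reads of such pairs cannot be told apart.

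Symbols and exon lengths came from GENCODE M21 (GRCm38), promoter and microRNA sequences from RefSeq (GRCm38.p6). Testing used edgeR 4.0.16 under R 4.3.3 (default filterByExpr, trimmed mean of M values scaling, two-sided quasi-likelihood F test with genotype as the one term) and Benjamini-Hochberg adjustment over all tested genes at 0.05. SE and 95% intervals come from the F statistic, with 5.1 prior degrees of freedom. The alternatives, among them DESeq2 1.42.0 and limma 3.58.1, other scalings and filters and a replicate block, are given at the end. No library was a duplicate of another (lowest chi-square over degrees of freedom 44.5). The genes and lists were chosen with earlier results of these data known. Named genes were the 10 imprinted genes, those past the threshold and the up to 3 smallest p-values of each list, Crhr1, Igf2, Igf2r, genes sharing exon bases with one of the 10, and the 3 genes nearest in profile (mean of at least 5 CPM, log2 of CPM + 0.5) to each of the 2 genes of the 10 with the widest range among those with a mean of at least 1 CPM. Snrpb, Snurf, Ndn's relative Magel2, Ube3a, Kcnq1ot1, Insr, Eif2ak4, Zfp57, Zfp445 and the untested Peg3 neighbours were named after their values were seen.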

Additional observations from a re-analysis of the deposited data

How the results depend on the processing

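In each of 15 alternatives 0 of the 10 imprinted genes, where tested, passed the adjusted threshold (smallest adjusted p = 0.269, Snrpn with DESeq2), and 130 of 138 values of these genes kept their direction. Those that turned were Dlk1 (-1.84 with limma-voom, -0.85 with the replicate block, -0.58 without WT 1 and a fitted -8.02 without CRFR1-KO 1, which rests on a lone library at 0 and is no bound, in a range up to 1.81), Peg3 (0.24 without CRFR1-KO 1 and 0.29 without WT 2, in a range from -0.33), Impact (0.54 without WT 2, from -0.79) and Plagl1 (0.16 without CRFR1-KO 2, from -0.79), and the cause was not tested. The count of called genes, 4 with all libraries, was 57 with DESeq2, 0 with limma-voom, 7 with the replicate block, 1 with models of one symbol summed, 0 with exon-sharing models summed and 0 to 69 without each library in turn. Among the other imprinted genes 0 were called, against 1 with DESeq2 (Cobl) and 0 to 1 without each library in turn (Mest without WT 2). Their median of -0.15 was -0.30 on library totals, where the median of all genes shifted to -0.13, -0.26 without the filter, -0.11 with limma-voom, -0.0221 with exon-sharing models summed and -0.152 to -0.0127 without each library in turn. Other directions that turned were those of Igf2r (-0.068 on library totals), Mirg (0.12 without CRFR1-KO 1 and 0.61 without WT 2, with a fitted -7.08 without CRFR1-KO 2), Gm38393 (0.10 without CRFR1-KO 2 and 0.42 without WT 1) and Gm49394, which overlaps Igf2 (-0.0519 with limma-voom, -0.0553 with the replicate block and -0.77 without CRFR1-KO 2, in a range up to 0.64). With exon-sharing models summed, Snhg14 and Gm38393 had no value of their own. They took the 0.46 of the sum with Snrpn, of which Snrpn made up 65.9% to 81.7%. Cdkn1a was called lower with the replicate block (-2.35, adjusted p = 0.0491). Grb10 had an edgeR unadjusted p of 0.0595 with the block. The replicate numbers are not known to pair the libraries, and the deviations of replicate 1 in CRFR1-KO and in WT correlated at r = -0.0747 over 15131 genes. Leaving out a library leaves its genotype a lone library, which is assumed to vary like the others. Summing exon-sharing models, summing Snrpn with Snurf and Gm38393, and dividing counts by 4 were chosen after seeing the data. Depth limits H19, Dlk1 and Ndn most, each with under 100 counts in every library.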
